A study of Mus musculus with 2 samples.

Results

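The genes that modify, fold, export and cross-link collagen were examined in CD31- CD45- cells of mouse gonadal white adipose tissue (gWAT). They were taken as 45 listed gene symbols, of which 44 were found among the 31054 genes of both count tables. The symbol not found, Leprel2, is a synonym of P3h3 in RefSeq, so P3h3 is given beside the members and not counted among them. The cells came from 18-month-old male mice of the genotype p16-CreERT2/R26-LSL-tdTomato, all given tamoxifen. In these mice the p16 gene drives a recombinase that tamoxifen switches on, and the recombinase turns on the red reporter tdTomato. The sort gave 1 library of Tom+ cells and 1 library of Tom- cells, which share genotype, age, tissue and the gate against CD31 and CD45. The sorted state and the library preparation cannot be told apart. How many mice were pooled in each library is not given in the sources used here. With 1 library per condition there is no replicate and no test, and every interval below covers counting error only, at 95%.

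Fibrillar collagen chains enter the endoplasmic reticulum (ER) through the translocon, where prolyl and lysyl hydroxylases modify them and dedicated chaperones hold them as the triple helix forms. The trimers leave the ER in COPII vesicles, and outside the cell proteinases trim their ends and lysyl oxidases cross-link them. General ER chaperones such as BiP serve nearly all secreted proteins, while the transcription factors XBP1 and CREB3L1 are known to raise genes of the secretory pathway. In adipose tissue the stromal cells, among them the adipocyte progenitor cells (APCs), are the main makers of this matrix, and mesothelial cells cover the surface of the tissue.

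Promoter letters were read for the members because groups of them differed in the comparisons below. RefSeq promoters (GRCm38.p6, 250 bases before to 50 after each start) were found for 34 members. The ER stress response element, written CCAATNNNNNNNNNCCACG and searched on both strands, was in the promoters of 5 of them, Calr, Canx, Hsp90b1, Hspa5 and Pdia6. These are 14.7% of the 34 members, against 0.137% of the 27025 genes in the table. All 5 are general ER chaperones or disulfide isomerases. The element was looked for as one of ER stress genes, so this share is no finding about the collagen-specific members. The letters TGACGTGG were in the promoters of Kdelr3, Sec23a and Sec24d, which are 8.82% of the members against 0.714% of all genes. All 3 act in transport between the ER and the Golgi. These letters were put on the search list together with the first element, so this share is likewise no finding about the members. The reverse complement of TGACGTGG starts with CCACG, which is also the end of the first element, and 2 promoters of the whole table held both. The shorter element ERSE-II was found in 0 of the 34. A match is only a match of letters. The windows upstream of the start are shown 5′ to 3′ on the strand of the gene, with the matched letters in capitals.
Hspa5, chr2:34772010-34772058: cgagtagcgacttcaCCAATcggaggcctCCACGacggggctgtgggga
Pdia6, chr12:17266476-17266524: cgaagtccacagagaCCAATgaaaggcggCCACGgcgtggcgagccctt
Canx, chr11:50325785-50325833: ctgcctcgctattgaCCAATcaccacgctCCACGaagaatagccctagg
Calr, chr8:84847060-84847108: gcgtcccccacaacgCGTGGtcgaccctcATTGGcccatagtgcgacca
Kdelr3, chr15:79516363-79516400: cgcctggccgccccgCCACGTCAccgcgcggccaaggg
Sec24d, chr3:123267455-123267492: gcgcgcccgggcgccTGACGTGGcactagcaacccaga
In Calr and Kdelr3 the match lies on the opposite strand. Hsp90b1 held 2 matches, and in Sec23a the match began 6 bases after the start.

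The Tom+ table held 61119807 UMIs (unique molecular identifiers, 1 per captured RNA molecule) over 5566 barcodes, and the one of Tom- held 96872394 over 11838. Cells with over 1000 and under 7000 genes and under 8% mitochondrial UMIs numbered 3524 in Tom+ (median 14392.5 UMIs) and 6717 in Tom- (median 11910). Of the barcodes, 2224 were in both tables, and 9 passed these limits in both. Cells with at least 10 UMIs of Msln, Upk3b, Krt19, Lrrn4 and Upk1b were called mesothelial-like, 250 in Tom+ and 1887 in Tom-. Cells with fewer than 5 were called stromal, 3263 in Tom+ and 4800 in Tom-, and 11 and 30 cells fell in neither class. UMIs were summed per class and library and scaled to CPM, the counts of a gene per 1000000 UMIs of the group. The stromal cells carried all 7 APC and stromal markers above 5 CPM, with a summed level of 36435 CPM in Tom+ against 45671 CPM in Tom-. None of the 5 endothelial and 4 mature adipocyte markers passed 5 CPM in them. Of 6 pericyte and smooth muscle markers 3 passed it in Tom+ and 2 in Tom-, at up to 60.4 and 84.0 CPM. Of 5 Schwann and neural markers 0 passed it in Tom+ and 2 in Tom-, and the 5 mesothelial markers above gave the same counts. Of 7 other mesothelial markers 1 and 2 passed it, at up to 170 CPM in Tom+ and 263 CPM in Tom-. In mesothelial-like cells the same APC and stromal markers still summed to 11423 CPM in Tom+ against 13519 CPM in Tom-. Most of each sum came from 1 marker, which alone gave 9987 CPM of the Tom+ sum and 11318 CPM of the Tom- sum. The lowest of the 7 markers gave 13.2 CPM of the former sum and 12.2 CPM of the latter. Pdgfra, an APC marker, had a UMI in 111 of the 250 Tom+ and 755 of the 1887 Tom- mesothelial-like cells.

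The stromal class also held immune cells, in spite of the gate against CD45. The 12 immunoglobulin and plasma cell markers summed to 60539 CPM in Tom+ stromal cells and 15925 CPM in Tom- stromal cells. Cells with at least 1% immunoglobulin UMIs, or at least 3 UMIs of Ptprc, Cd52, Tyrobp, Cd79a, Cd79b and Cd3e, numbered 199 of the 3263 Tom+ stromal cells and 119 of the 4800 Tom- stromal cells. They were deep, with a median of 31440 UMIs in Tom+ and 16687 in Tom-. Of the 199 Tom+ immune cells, 123 had a barcode that the Tom- table also lists, against 281 of the other 3064 Tom+ stromal cells. Without them, the immunoglobulin markers summed to 692 CPM in Tom+ against 259 CPM in Tom- stromal cells. The limits were set after the data were seen, and the counts of members in each of the 6 comparisons are given with and without these cells.

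In these immune cells some general secretory genes were higher in CPM than in the other stromal cells, and collagen-specific ones were lower. The immunoglobulin markers alone took 487989 CPM of them in Tom+ and 339915 CPM in Tom-, which lowers the CPM of every other gene. The 7 APC and stromal markers still summed to 11108 and 13559 CPM. Pdgfra had a UMI in 108 of the 199 Tom+ and 61 of the 119 Tom- cells. Whether these barcodes hold more than 1 cell was not tested. Xbp1, a transcription factor of the unfolded protein response that plasma cells need, was at 718 CPM (697 to 739) in Tom+ immune cells against 211 CPM in the other Tom+ stromal cells. In Tom- it was at 861 CPM (827 to 897) against 220 CPM. Pdia4, a disulfide isomerase, was at 384 CPM (369 to 400) against 113 CPM in Tom+ and at 367 CPM (344 to 391) against 123 CPM in Tom-. Ssr4, a subunit of the translocon-associated complex, was at 545.5 CPM (527 to 564) against 231 CPM in Tom+ and at 826 CPM (791 to 861) against 253 CPM in Tom-. In both libraries all 3 were higher in the immune cells beyond counting error. Serpinh1, the collagen chaperone HSP47, went the other way, with 219 CPM (207 to 230) against 851 CPM in Tom+ and 342 CPM (321 to 365) against 836 CPM in Tom-. Loxl2, a lysyl oxidase, was at 47.5 CPM (42.2 to 53.2) against 210 CPM in Tom+ and at 36.3 CPM (29.5 to 44.3) against 129 CPM in Tom-.

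**Figure D1:**
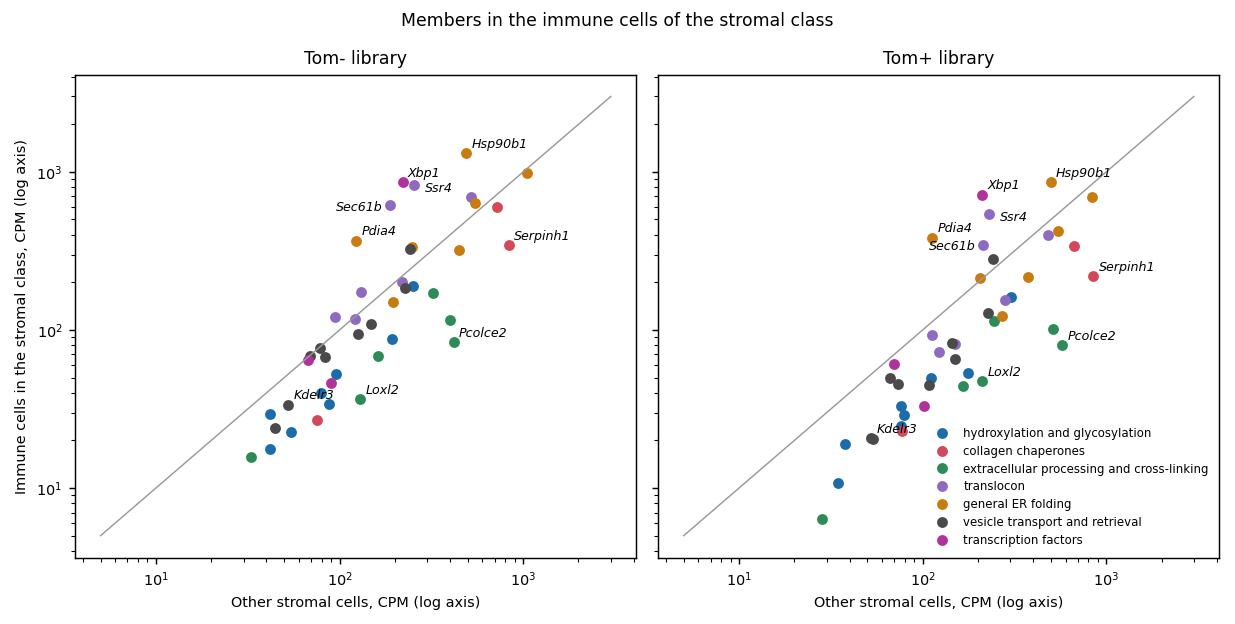
Each point is 1 member, with its level in the other stromal cells on the horizontal axis and in the immune cells of the stromal class on the vertical axis, both in CPM on log axes; the line marks equal levels and colours mark roles. Xbp1, Pdia4, Ssr4, Sec61b and Hsp90b1 lie above the line in both libraries, and Serpinh1, Loxl2, Pcolce2 and Kdelr3 below it.

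The members were first compared between Tom+ and Tom- stromal cells, which asks whether cells marked by p16 carried more or less of the machinery. Ratios are log2 of Tom+ over Tom- and were centred on the median of all genes that reached 5 CPM in the mean of both groups, which lay at 0.07 by the rule and at 0.14 without immune cells. Of the 44 members 43 passed this minimum, and P4ha3, a prolyl hydroxylase subunit, was under it at 0.188 to 0.346 CPM in each class and library. A centred ratio of at least 0.35 in size was counted as past the fold. By the rule, 1 member was past the fold higher and 6 were past it lower, where all genes gave 9.78% higher and 11.1% lower, so that the members' 2.33% lay under the background and their 14.0% near it. Without immune cells 2 were higher and 6 lower, against 10.1% and 11.6% of all genes. The median member was at -0.14 after centring and at -0.01 before it, so that the typical member had nearly the same CPM in both libraries. By the rule, the split of 1 higher and 6 lower became 4 and 3 with no centring, and 4 and 2 when centred on genes of at least 50 CPM. Without immune cells a count with no centring is not given. Before centring, Canx, Pcolce2, Loxl1, Sec24d and Ssr3 were also past 0.35 higher there, beside the 2 counted. Of the 6 lower, Pcolce alone was past it. Over the same cells without immune cells, Col3a1 had 6054 CPM in Tom+ against 3732 CPM in Tom-, a centred ratio of 0.56 (0.55 to 0.57), and Col1a1 had 3043 and 2365 CPM, a ratio of 0.23 (0.22 to 0.24). Both collagen genes were higher in Tom+ beyond counting error, Col1a1 by less than the fold. The members together took 1.017% of UMIs (1.014 to 1.020) in Tom+ against 1.003% (1.0001 to 1.005) in Tom-.

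The members past the fold after centring, whose number lay under or near the background given above, came mainly from the extracellular steps and general ER folding. Values from here on leave the immune cells out unless stated. Loxl2 (ENSMUSG00000034205, chr14:69609068-69695834) had 210 CPM (206 to 214) in Tom+ against 129 CPM (126 to 132) in Tom-, a centred ratio of 0.57 (0.52 to 0.61). Plod1, a lysyl hydroxylase of the helix, had 76.4 CPM (73.9 to 79.1) against 54.5 CPM (52.6 to 56.5), a ratio of 0.35 (0.28 to 0.42) that was just under the fold with immune cells, at 0.33. Both were higher in Tom+ beyond counting error. Pcolce, which enhances the removal of the C-propeptide, had 245 CPM (240 to 249) in Tom+ against 325 CPM (320 to 330) in Tom-, a ratio of -0.54 (-0.58 to -0.51). Its relative Pcolce2 had 577 CPM (570 to 584) against 418 CPM (413 to 424), a ratio of 0.33 (0.30 to 0.35) just under the fold. Before centring it was past the fold. The 2 enhancers thus differed in opposite directions. Loxl3, another lysyl oxidase, had 28.2 CPM (26.7 to 29.8) against 32.8 CPM (31.3 to 34.4), with a ratio of -0.36 (-0.46 to -0.25). P4ha2, a catalytic prolyl hydroxylase subunit, had 34.7 CPM (33.0 to 36.5) against 41.6 CPM (39.95 to 43.4), with a ratio of -0.40 (-0.49 to -0.30). Loxl3 and P4ha2 were past the fold only after centring.

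After centring, 3 of the 7 general folding members in the ER were past the fold lower and none was past it higher. These are 42.9% lower, where all genes gave 11.6% lower and 10.1% higher. A role of 7 genes is small, and the count was not tested. Hspa5, the gene of BiP, had 841 CPM (832 to 849) in Tom+ against 1055 CPM (1047 to 1064) in Tom-, a ratio of -0.46 (-0.48 to -0.44). The disulfide isomerase Pdia6 had 204 CPM (200 to 208) against 247 CPM (243 to 251), with a ratio of -0.41 (-0.45 to -0.37). Its relative Pdia3 had 374 CPM (369 to 380) against 445 CPM (440 to 451), with a ratio of -0.39 (-0.42 to -0.36). All 3 were lower in Tom+ also in CPM before centring, but by less than the fold, since centring shifted every ratio by 0.14. The median member of this role was at -0.26 after centring and at -0.13 before it. Canx, a lectin chaperone, had 270 CPM (265 to 274) against 195 CPM (191 to 198), a ratio of 0.33 (0.30 to 0.37), the highest of this role. Before centring, the 3 lower genes were inside the fold and Canx was past it higher. Hspa5, Pdia6 and Canx all have the ER stress response element printed above, and Canx differed in the other direction.

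No collagen chaperone, translocon gene, transport gene or transcription factor of the list passed the fold. Serpinh1 had 851 CPM (843 to 860) in Tom+ against 836 CPM (828 to 843) in Tom-, so that its level was slightly higher in Tom+ and its centred ratio slightly negative, at -0.11 (-0.13 to -0.09). The 3 chaperones ranged from -0.26 for Ppib to -0.11 for Fkbp10. The translocon ranged from -0.27 for Ssr4 to 0.22 for Ssr3. The transport genes ranged from -0.22 for Sec13, a COPII coat gene, to 0.23 for Sec24d, the coat subunit needed for large collagen cargo. Creb3l1 had 101 CPM (98.5 to 104) against 89.8 CPM (87.3 to 92.3), with a ratio of 0.04 (-0.02 to 0.10). Xbp1 depended on the immune cells, with a ratio of 0.06 (0.02 to 0.09) by the rule and of -0.20 (-0.24 to -0.16) without them, and Pdia4 likewise went from 0.05 (0.00 to 0.10) to -0.26 (-0.31 to -0.21). P3h3, a prolyl 3-hydroxylase, had 78.2 CPM (75.6 to 80.8) in Tom+ against 99.2 CPM (96.6 to 102) in Tom-, with a ratio of -0.48 (-0.54 to -0.42).

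**Figure D2:**
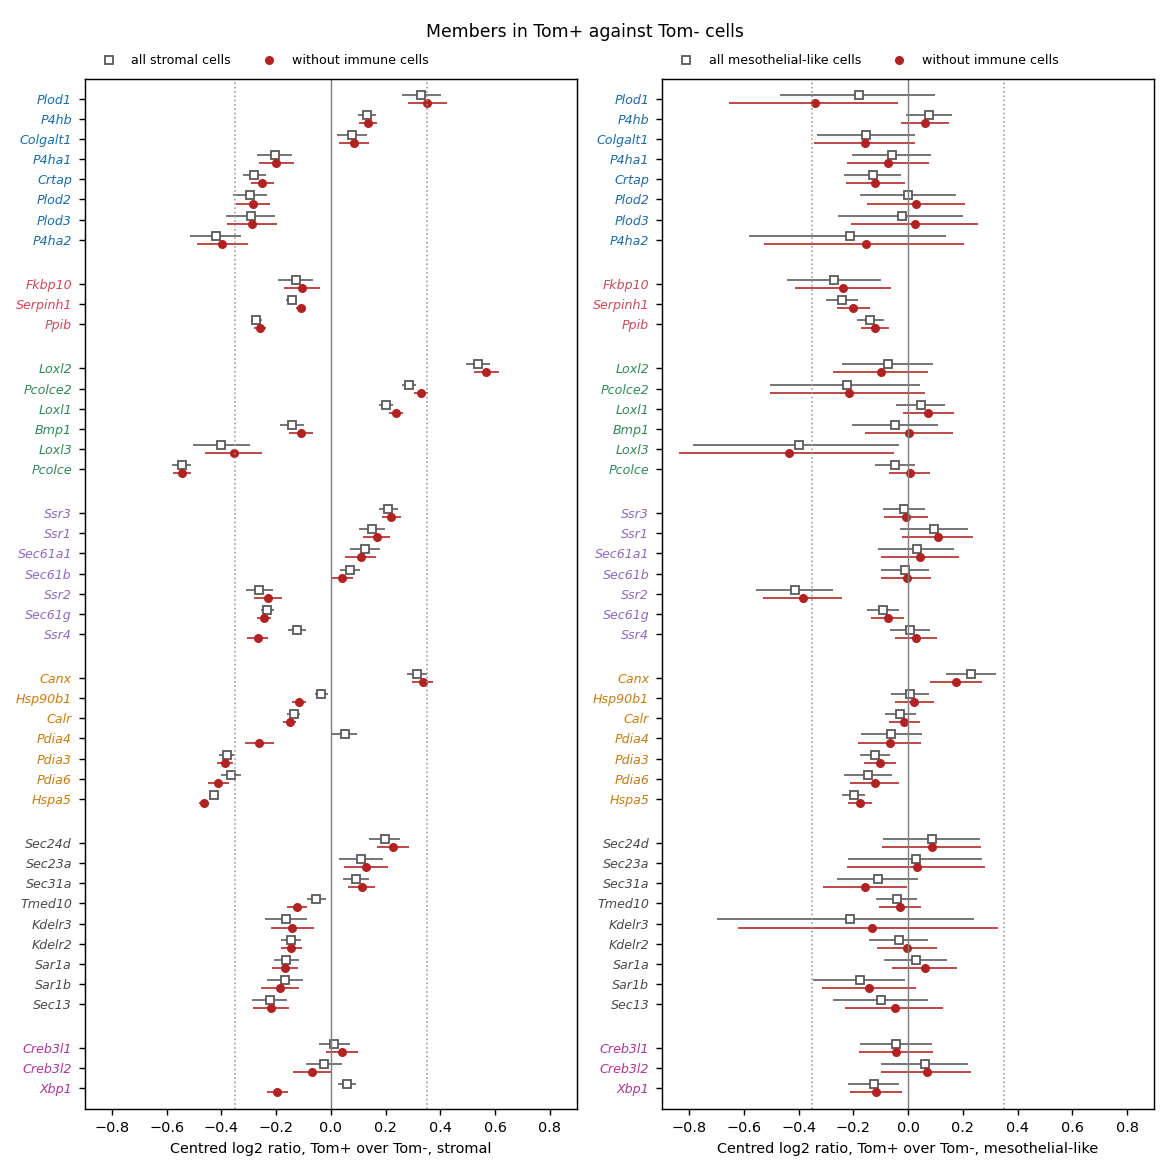
Centred log2 ratio of Tom+ over Tom- for the 43 members, in stromal cells on the left and mesothelial-like cells on the right; open squares use all cells of the class, filled circles leave immune cells out, bars are counting intervals and dotted lines mark 0.35 in size. Loxl2 lies farthest right and Pcolce farthest left in stromal cells, and Xbp1, Pdia4 and Ssr4 move left when immune cells are left out.

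Tom+ and Tom- stromal cells also differed in their collagen RNA, with a median of 0.622% of UMIs from Col1a1 and Col3a1 in Tom+ and 0.401% in Tom-. The ratios were therefore also averaged over 5 ranges of this share, so that cells of like collagen share were compared. Then 10 of the 43 members were past the fold lower and 1 higher, 23.3% and 2.33%, against 10.6% lower and 9.14% higher among all genes. The median member was at -0.21 after centring and at -0.08 before it. Those past it lower were P4ha2, Ppib, Pcolce, Loxl3, Ssr2, Ssr4, Hspa5, Pdia3, Pdia6 and Kdelr3, a receptor that returns escaped ER proteins. Centring shifted every ratio by 0.13 here. Ppib, Ssr2, Ssr4, Hspa5, Pdia3 and Pdia6 were past the fold only after centring. A count without centring is not given for this setting. Kdelr3 was then at -0.53 and Pcolce at -0.76, and Serpinh1, at -0.34, was just inside the limit. Pcolce2 was the member past it higher, at 0.45. Loxl2, at 0.34, and Plod1, at 0.13, were no longer past it. When the 3 ranges of stromal cells described below were weighted equally instead, 2 were higher and 5 lower, against 10.7% and 11.5% of all genes.

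In mesothelial-like cells the same comparison of the libraries showed little. Of the 250 Tom+ mesothelial-like cells, 100 had a barcode that the Tom- table also lists. Among the 1887 Tom- ones, 207 had a barcode that is in both tables. By the rule, 0 members were past the fold higher and 2 lower, where all genes gave 5.93% and 5.53%, and without immune cells the counts were also 0 and 2, against 4.8% and 5.45%. Ssr2, a translocon-associated subunit, had 88.0 CPM (79.97 to 96.6) in Tom+ against 113 CPM (109 to 116) in Tom-, a ratio of -0.38 (-0.53 to -0.24). Loxl3 had 12.4 CPM (9.53 to 15.9) against 16.5 CPM (15.1 to 18.0), a ratio of -0.43 (-0.84 to -0.05) whose interval nearly reached 0. Plod1, higher in Tom+ among stromal cells, had 20.05 CPM (16.3 to 24.4) against 24.9 CPM (23.2 to 26.7) here. Canx was highest, at 0.18 (0.08 to 0.27). The 6 immune markers summed to 839 CPM in Tom+ mesothelial-like cells and 632 CPM in Tom- ones by the rule. With the immune cells left out the counts stayed at 0 and 2, and the median member went from -0.06 to -0.05. The level of these markers that remained and the number of mesothelial-like cells left are not given. The difference between stromal and mesothelial-like cells in these ratios was not tested.

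The members were next compared between the classes within each library. For mesothelial-like over stromal cells a centred ratio of at least 1 in size was counted as past the fold. In Tom-, 0 members were past it higher and 8 lower, both with and without immune cells, against 10.5% of all genes higher and 10.5% lower by the rule, and 10.5% and 10.4% without immune cells. In Tom+ the counts were 0 and 9, against 11.6% and 11.1% by the rule and 11.7% and 11.6% without immune cells. The stromal groups here are those used in the library comparison, so these results share cells with it. The same 8 members were past the fold in both libraries, P4ha2, Plod1, Bmp1, Loxl1, Loxl2, Loxl3, Pcolce2 and Kdelr3, and Colgalt1, a galactosyltransferase of collagen, joined them in Tom+ at -1.04 (-1.22 to -0.86).

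Of these members 5 belong to the 6 extracellular processing and cross-linking genes. In Tom-, Loxl1, Loxl2 and Loxl3 were past the fold only after centring, which shifted every ratio by 0.12. Among all genes 10.4% were past the fold lower in Tom- and 11.6% in Tom+. Pcolce2 (ENSMUSG00000015354, chr9:95637601-95698096) differed most, at 27.4 CPM (25.7 to 29.3) in mesothelial-like cells against 418 CPM (413 to 424) in stromal cells of Tom-, a ratio of -4.05 (-4.15 to -3.96). In Tom+ it was at 24.1 CPM (19.9 to 28.8) against 577 CPM (570 to 584), a ratio of -4.61 (-4.88 to -4.35). Pcolce was the exception of the role, with 331 CPM (325 to 337) against 325 CPM (320 to 330) in Tom-, and 338 CPM (322 to 355) against 245 CPM (240 to 249) in Tom+. The 2 enhancers thus differed between the classes in unlike ways. Loxl1 was at 207 CPM (202 to 212) against 397 CPM (392 to 403) in Tom- and at 222 CPM (209 to 235) against 515 CPM (508 to 522) in Tom+. Loxl2 was at 67.3 CPM (64.5 to 70.2) against 129 CPM in Tom-, a ratio of -1.06, and at 64.0 CPM (57.1 to 71.4) against 210 CPM in Tom+, a ratio of -1.74. Bmp1, the C-propeptide proteinase, was at 72.1 CPM (69.2 to 75.1) against 162 CPM (159 to 165) in Tom- and at 73.6 CPM (66.2 to 81.5) against 165 CPM (161 to 169) in Tom+.

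Inside the cell, the members past the fold belonged to hydroxylation and glycosylation and to transport. Kdelr3 was at 9.49 CPM (8.46 to 10.6) in mesothelial-like against 52.7 CPM (50.8 to 54.6) in stromal cells of Tom-, and at 8.82 CPM (6.41 to 11.8) against 52.5 CPM (50.4 to 54.7) in Tom+. Its centred ratio was -2.60 in both libraries, while Kdelr2, the other retrieval receptor of the list, was at -0.69 and -0.56. P4ha2 was at 15.97 CPM (14.6 to 17.4) against 41.6 CPM in Tom- and at 14.6 CPM (11.5 to 18.4) against 34.7 CPM in Tom+, while P4ha1, the other catalytic subunit, was at -0.01 and 0.10. Plod1 was at 24.9 CPM (23.2 to 26.7) against 54.5 CPM in Tom- and at 20.05 CPM (16.3 to 24.4) against 76.4 CPM in Tom+. All 3 genes were lower in mesothelial-like cells of both libraries beyond counting error. Serpinh1 was at 584 CPM (576 to 593) against 836 CPM (828 to 843) in Tom-, a ratio of -0.64 (-0.66 to -0.61), and at -0.74 (-0.80 to -0.68) in Tom+. The translocon ranged from -0.34 to 0.26 in Tom- and from -0.50 to 0.51 in Tom+, and general ER folding from -0.58 to 0.29 and from -0.45 to 0.56. The median member was at -0.27 in Tom- and -0.29 in Tom+. Col1a1 was at -1.47 and -1.88 and Col3a1 at -0.77 and -1.42, so that the mesothelial-like cells also had less collagen RNA.

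**Figure D3:**
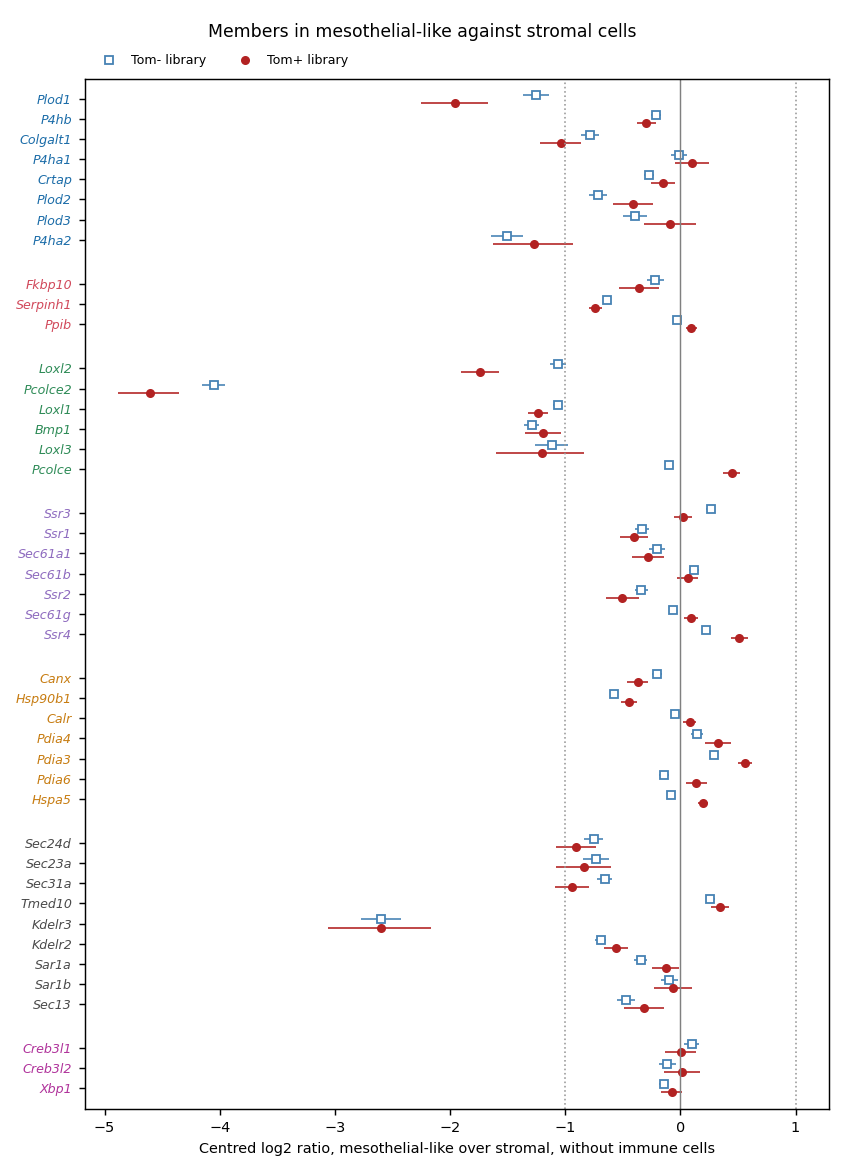
Centred log2 ratio of mesothelial-like over stromal cells for the 43 members, without immune cells, with counting intervals; open squares are the Tom- library, filled circles the Tom+ library, and the dotted lines mark 1 in size. Pcolce2 and Kdelr3 lie far to the left in both libraries, and no member reaches the right-hand line.

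The relation to collagen within stromal cells was examined next, 1 library at a time. Cells were ordered by the share of Col1a1 and Col3a1 in their UMIs and cut into 5 groups of equal size (quintiles), and these 2 genes were left out of every total. Without immune cells the median share rose from 0.132% in the lowest to 1.12% in the highest quintile of Tom-, and from 0.190% to 1.70% in Tom+. The highest quintile was also deeper, with a median of 12572.5 UMIs against 9804 in Tom- and 17240 against 12038 in Tom+. The members summed to 0.851, 0.921, 0.978, 1.05 and 1.198% of UMIs over the 5 quintiles of Tom-, and to 0.873, 0.939, 0.9997, 1.05 and 1.21% in Tom+. The share of UMIs from the machinery thus rose from each quintile to the next in both libraries.

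Most members took part in this. Of the 43, 41 lay above the median gene in each library, and 26 in Tom- and 25 in Tom+ were past the fold of 0.35 higher. These are 60.5% and 58.1% of the members, against 11.7% and 15% of all genes. In each library 1 member was past it lower, against 10.4% and 14.5% of all genes. The median member was at 0.44 in Tom- and 0.43 in Tom+. By the rule, with immune cells, 18 were higher and 1 lower in Tom-, against 12.1% and 11.5%, and 22 higher and 7 lower in Tom+, against 16.8% and 17.2%. With no centring these became 29 and 1, and 31 and 2. The lowest quintile by the rule held 147 of the 199 Tom+ immune cells and 82 of the 119 Tom- immune cells, and the median gene then lay at 0.44 in Tom+ before centring, against 0.05 without them. Without the barcodes that both tables list, the 7 lower in Tom+ became 1.

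Kdelr3, the retrieval receptor gene, and the 3 collagen chaperones are given first. Kdelr3 (ENSMUSG00000010830) lies at chr15:79516411-79527739 and Serpinh1 (ENSMUSG00000070436) at chr7:99345376-99353239 in mm10, by GENCODE M21. Kdelr3 rose from 26.5 CPM in the lowest quintile over 34.1, 44.8 and 60.3 to 90.5 CPM in the highest of Tom-, a centred ratio of 1.74 (1.54 to 1.94), and from 23.0 over 28.7, 43.6 and 57.3 to 97.5 CPM in Tom+, a ratio of 2.04 (1.81 to 2.28). Serpinh1 rose from 503 over 619, 764 and 899 to 1308 CPM in Tom-, and from 494 over 616, 796 and 941 to 1292 CPM in Tom+. Its ratio was 1.34 in both libraries (1.30 to 1.39 in Tom- and 1.29 to 1.39 in Tom+). Both genes climbed at every step. Fkbp10, a prolyl isomerase of collagen, rose from 51.3 to 108 CPM in Tom- and from 46.5 to 121 CPM in Tom+, with ratios of 1.03 and 1.34. Ppib, the isomerase cyclophilin B, was at 0.53 (0.49 to 0.58) and 0.62 (0.56 to 0.67), so that all 3 collagen chaperones were past the fold.

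Among the hydroxylases and the galactosyltransferase, Plod1 rose from 40.7 to 76.1 CPM in Tom- and from 44.8 to 112 CPM in Tom+, with ratios of 0.87 (0.69 to 1.04) and 1.28 (1.11 to 1.46). P4ha2 was at 0.73 and 0.89, Colgalt1 at 0.74 and 0.82, P4hb at 0.48 and 0.47 and Crtap, a subunit of the prolyl 3-hydroxylase complex, at 0.44 and 0.42. Plod2 was past the fold in Tom+ alone, at 0.43 (0.27 to 0.58) against 0.18 (0.05 to 0.31), and this difference was not tested. P4ha1 and Plod3 stayed under the fold in both, between 0.21 and 0.33. All 8 genes of the role that passed the minimum lay above the median gene.

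Outside the cell Loxl2 rose from 82.5 to 188 CPM in Tom- and from 118 to 289 CPM in Tom+, with ratios of 1.15 (1.03 to 1.27) and 1.25 (1.14 to 1.36). Loxl1 was at 0.97 (0.90 to 1.04) and 0.84 (0.78 to 0.91), and Pcolce at 0.87 (0.80 to 0.94) and 1.17 (1.08 to 1.27). Pcolce2 was the member past the fold lower, going from 435 over 481, 460 and 412 to 332 CPM in Tom-, a ratio of -0.43 (-0.49 to -0.36), and from 666 over 715, 625 and 573 to 392 CPM in Tom+, a ratio of -0.81 (-0.87 to -0.75). By the rule, with immune cells, Pcolce2 was at -0.27 in Tom- and at -0.345 in Tom+ and was not past the fold, and the member past it lower in Tom- was Xbp1, at -0.64. Loxl3 and Bmp1 stayed between 0.03 and 0.23.

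Members of the translocon, of general ER folding and of transport differed among themselves. Ssr2 was at 0.83 (0.72 to 0.95) and 0.93 (0.79 to 1.06), Ssr4 at 0.48 and 0.58, Sec61a1 at 0.46 and 0.49 and Sec61b at 0.44 and 0.45, while Sec61g, Ssr1 and Ssr3 were between 0.08 and 0.28. General ER folding was past the fold higher in 4 of 7 members in Tom- and in 1, Pdia6, in Tom+. All genes gave 11.7% and 15% higher. Hspa5 was flat in Tom-, from 1061 to 1093 CPM, a ratio of 0.01 (-0.03 to 0.04), and in Tom+ it went from 884 over 883, 868 and 832 to 794 CPM, a ratio of -0.20 (-0.25 to -0.16). In transport, Kdelr2 was at 0.68 and 0.82, Sec24d at 0.69 and 0.88, Sec23a at 0.62 and 0.78, Sec31a at 0.46 in both and Sec13 at 0.43 and 0.49. Sar1a, a small GTPase of COPII, was at 0.34 and 0.36, Sar1b at -0.01 and 0.07 and the cargo receptor gene Tmed10 at 0.14 and 0.13. Kdelr3, Sec24d and Sec23a, whose promoters hold TGACGTGG, were all past the fold in both libraries. So were Kdelr2, Sec31a and Sec13 of the same role, which were not among the matches. Of the 5 genes with the ER stress response element, Hsp90b1, Calr and Pdia6 were past it in Tom- and Pdia6 in Tom+. Of all 43 members, 26 were past it higher in Tom- and 25 in Tom+. A link of the letters to the collagen share was not tested.

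The 3 transcription factors differed. Creb3l1 (ENSMUSG00000027230, chr2:91982328-92024502) rose from 60.4 over 73.0, 84.8 and 95.7 to 129 CPM in Tom-, a ratio of 1.05 (0.91 to 1.19), and from 66.3 over 75.5, 91.1 and 109 to 153 CPM in Tom+, a ratio of 1.16 (1.02 to 1.31). Creb3l2 was at 0.17 (0.02 to 0.32) and 0.12 (-0.04 to 0.28). Xbp1 went from 210 to 240 CPM in Tom-, a ratio of 0.16 (0.07 to 0.24), and from 203 to 224 CPM in Tom+, a ratio of 0.10 (0.00 to 0.19). With the immune cells it turned, to -0.64 in Tom- and -1.47 in Tom+. Sec61b, Ssr4, Hsp90b1, Pdia4 and Tmed10 likewise lay past the fold lower in Tom+ by the rule and above the median gene without the immune cells.

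**Figure D4:**
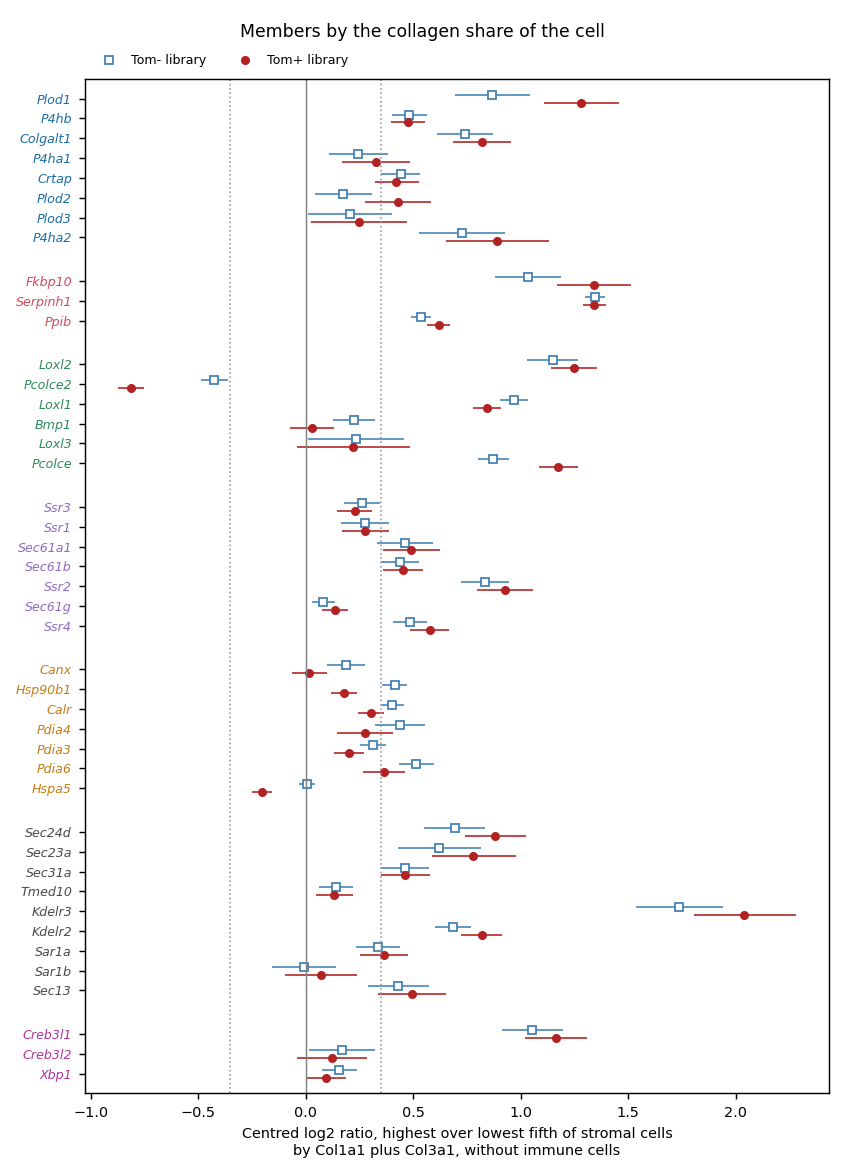
Centred log2 ratio of the highest over the lowest quintile of stromal cells by their share of Col1a1 and Col3a1 for the 43 members, without immune cells, with counting intervals; open squares are Tom-, filled circles Tom+, and dotted lines mark 0.35 in size. Kdelr3, Serpinh1, Fkbp10, Loxl2 and Creb3l1 lie to the right of 1 in both libraries, and Pcolce2 alone lies to the left of -0.35.

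**Figure D5:**
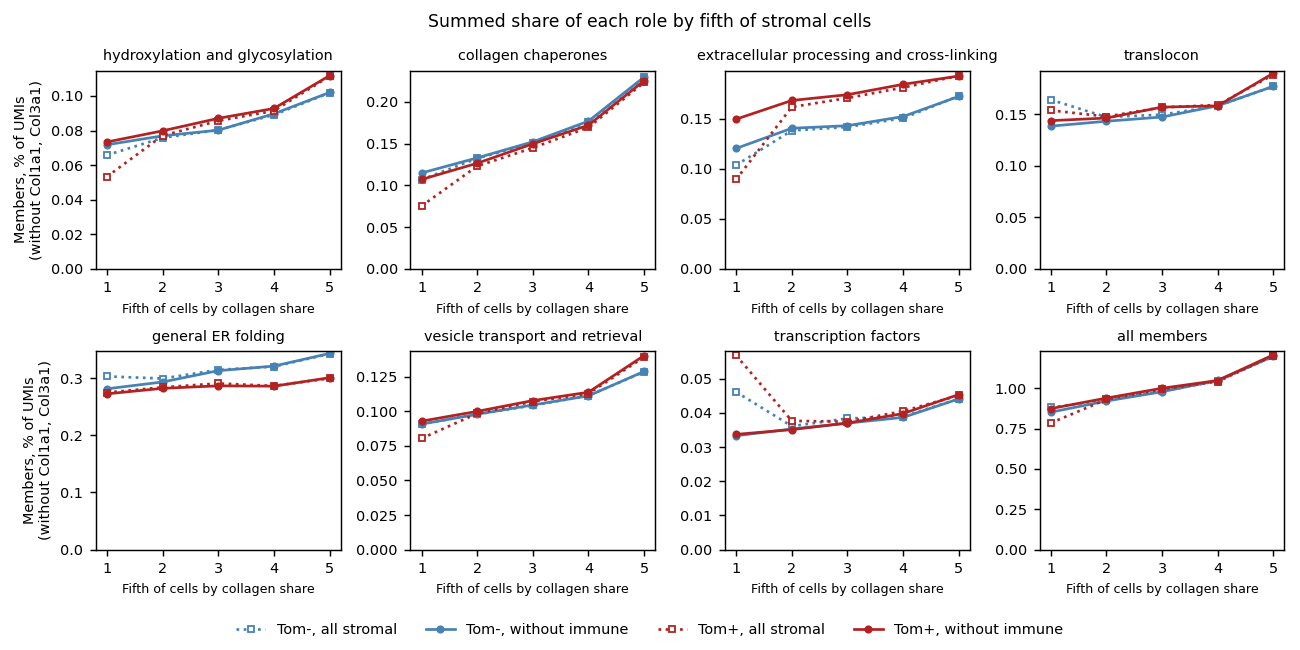
Summed share of UMIs of each role and of all members over the quintiles of stromal cells, 1 being the lowest collagen share; blue is Tom-, red Tom+, dotted lines with open squares use all stromal cells and solid lines with filled circles leave immune cells out. The collagen chaperones rise from 0.115% to 0.230% in Tom- and from 0.107% to 0.226% in Tom+, and general ER folding from 0.282% to 0.343% and from 0.273% to 0.301%.

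Over single cells thinned to 7461 UMIs, the summed share of the members and the collagen count had a Spearman rho of 0.45 in 4086 Tom- cells and of 0.46 in 2821 Tom+ cells. For Serpinh1 alone rho was 0.53 and 0.59. The median over the 43 members was 0.24 in both libraries, against 0.04 over all genes tested. These are descriptions across cells of 1 library, which share their preparation and free RNA, and they carry no test.

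The quintiles differed in the kind of stromal cell. Thinned cells with at least 5 UMIs of Fabp4, Lpl, Cd36 and Icam1, markers of preadipocytes, and fewer than 5 of Pi16, Dpp4, Cd55 and Sema3c, markers of interstitial progenitors, made up 45.04% of the lowest and 75.5% of the highest quintile in Tom-, and 47.5% and 84.2% in Tom+. The opposite range made up 15.9% and 3.53% in Tom-, and 21.2% and 1.63% in Tom+. Cells too shallow to be thinned, 628 stromal cells in Tom- and 264 in Tom+, were in no range but count in the total behind these shares. Among the thinned stromal cells, immune cells included, 595 in Tom- and 450 in Tom+ lay within 1 UMI of a limit, so these are ranges and not cell types. With the ratios taken within each of the 3 ranges and averaged, 25 members were past the fold higher and 0 lower in Tom-, against 12.5% and 10.4% of all genes, and 22 and 0 in Tom+, against 14.4% and 13.7%. By the rule, with immune cells, the same averages gave 19 higher and 1 lower in Tom-, against 13.4% and 11.9% of all genes, and 21 and 9 in Tom+, against 20% and 19.5%. Within the ranges and without immune cells, Kdelr3 was at 1.323 in Tom- and 1.503 in Tom+, Serpinh1 at 1.281 and 1.203 and Creb3l1 at 0.996 and 0.938. Pcolce2 was at 0.03 in Tom- and -0.18 in Tom+, no longer past the fold, and by the rule it was at 0.21 and 0.45, the latter past it higher. Between the ranges it was at 1097 CPM (1072 to 1123) in the Pi16 range and 278 CPM (273 to 284) in the Fabp4 range of Tom-, and at 1281 CPM (1249 to 1313) and 438 CPM (431 to 446) in Tom+. Pcolce had the opposite order, with 167 CPM (157 to 177) and 355 CPM (349 to 361) in Tom-, and 115 CPM (106 to 125) and 282 CPM (276 to 288) in Tom+. Bmp1, at 303 and 131 CPM in Tom- and 273 and 144 CPM in Tom+, and Loxl1, at 654 and 342 CPM and at 688 and 473 CPM, were also higher in the Pi16 range. Serpinh1 was at 565 and 899 CPM in Tom- and at 532 and 923 CPM in Tom+, and Plod1 at 20.4 and 62.3 CPM and at 35.5 and 85.6 CPM, both higher in the Fabp4 range. The members thus differed in direction between the 2 ranges.

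Of 92 related genes of the same pathway, P3h3 among them, 21 of 83 tested were past the fold higher with the collagen share in Tom- and 27 of 84 in Tom+, with 1 lower in each, without immune cells. These are 25.3% and 32.1% higher, against 11.7% and 15% of all genes. By the rule 19 were higher and 13 lower of 84 in Tom-, and 20 and 22 of 85 in Tom+, so that the shares lower, 15.5% and 25.9%, then stood against 11.5% and 17.2% of all genes. Pdia5, a disulfide isomerase, was at 1.54 and 1.85, Lox, the founding lysyl oxidase, at 1.31 and 1.58, Fkbp11 at 1.06 and 1.80, P3h1 at 0.94 and 1.32, and the cargo receptor gene Tmed3 at 0.81 and 0.80. Between Tom+ and Tom- stromal cells 2 of 83 were past the fold higher, Lox at 0.36 and Mbtps2 at 0.40, and 14 lower, 2.41% and 16.9% against 10.1% and 11.6% of all genes. Among the 14 were 7 of 24 genes of translocation, signal peptidase and oligosaccharyl transferase, Spcs1, Spcs2, Sec11a, Sec11c, Rpn2, Dad1 and Ddost, between -0.50 and -0.36. Sdf2l1, an ER stress gene, was lowest at -0.64. By the rule these counts were 2 and 9 of 84. The 7 of 24 were then 4 of 24, 16.7% against 11.1% of all genes. Among the other ER folding and unfolded protein response genes, which include Sdf2l1, the lowest value by the rule was -0.34, not past the fold. Between the classes 2 of 83 were past the fold higher and 6 lower in Tom-, and 3 and 7 in Tom+. These shares, 2.41% and 7.23% in Tom- and 3.61% and 8.43% in Tom+, lay under the 10.5% and 10.4%, and 11.7% and 11.6%, of all genes. By the rule 2 were higher and 8 lower of 84 in each library. Without immune cells, P3h4, a partner of the prolyl 3-hydroxylases, was at 2.38 and 2.71 and Adamts2, the N-propeptide proteinase of fibrillar collagen, at -1.67 and -1.93.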

How the data were processed

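Per the labels, gonadal fat was digested with Liberase, sorted by FACS and run on the 10x platform. The authors deposited raw UMI counts per gene and barcode, made per the submitters' processing notes with Cell Ranger 3.0.2 and mm10. From these, UMIs were summed per library and class (Python 3.11.15, numpy 2.4.6, scipy 1.17.1, pandas 2.3.3) and scaled to CPM. Levels have exact Poisson intervals and ratios exact conditional Clopper-Pearson intervals at 95%, for counting error only. No p-value was computed. The ratio code was tested on simulated data. No doublet caller was run, and cells in neither class were left out. The members, roles and lists were chosen with earlier results of these data known, and the limits for immune cells after the data were seen. Full values are given for members past the fold in any comparison and for the highest and lowest of each role. Only some of the related genes past the fold are named. Promoters of 10 members and all protein sequences were not analysed here. Alternatives changed the centring, minimum, cell limits, depth, weights and cells used.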

Additional observations from a re-analysis of the deposited data

How the results depend on the processing

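No paired analysis was possible because each condition has 1 library, and no library could be left out. With 1 library per condition, sorting, preparation and mouse cannot be told apart from the Tom signal, and the intervals leave out all variation between animals. Counting error limits low members in the 250 Tom+ mesothelial-like cells. How many of them were left without immune cells is not given. Free RNA was not removed. Over the alternatives, 150 counts of members past the fold stayed within 1.5 times the value by the rule and 36 did not. Where no share over all genes is given for an alternative, its counts show only how the calls of the members move. Of single values 2815 moved by less than their counting interval, 1134 by more, and 36 that were past the fold changed sign.

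For Tom+ against Tom- stromal cells, 1 member higher and 6 lower became 4 and 3 with no centring, and 4 and 2 when centred over genes of at least 50 CPM. The number higher was 2 with a minimum of 20 CPM, without the 5% of cells with most UMIs, without barcodes in both libraries, with 3 ranges weighted equally, and without immune cells with or without these ranges. It was 3 with each cell weighted equally, with or without immune cells. The number lower was 12 at equal collagen share, and 10 so without immune cells. For the mesothelial-like cells, 2 lower became 1 with a minimum of 20 CPM or each cell weighted equally, and 0 when so weighted without immune cells. Cells with a UMI of other cell types were those with any UMI of Ptprc, Pecam1, Cdh5, Calca or Sox10, or with at least 5 immunoglobulin UMIs. Leaving them out removed 2959 of the 3263 Tom+ stromal cells. It then gave 3 higher and 23 lower between mesothelial-like cells and 17 in place of 9 lower between the classes in Tom+. The mesothelial-like cells left and the share over all genes are not given for this setting. These counts are therefore not read as a result about the members. With no centring, 8 lower between the classes in Tom- became 5.

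For the quintiles of Tom-, 18 higher became 29 with no centring. The 1 lower became 0 without the deepest 5% of cells, with each cell weighted equally with or without immune cells, with thinned cells, and within the 3 ranges without immune cells. The 7 lower in Tom+ became 2 with no centring, 3 with each cell weighted equally or thinned, 0 within the 3 ranges without immune cells, and 1 without the deepest 5%, without cells with a UMI of other cell types, without shared barcodes, and without immune cells, also when weighted equally.

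Of the values past the fold by the rule, those that changed sign were all in the quintiles. Xbp1, at -0.64 in Tom-, became 0.048 without the deepest 5%, 0.12 without cells with a UMI of other cell types, 0.16 without immune cells and 0.12 when these were left out and cells weighted equally. In Tom+, no centring gave 0.029 for Sec61b, 0.044 for Hspa5 and 0.050 for Tmed10. Without the deepest 5%, Sec61b was at 0.19, Ssr4 at 0.21 and Hsp90b1 at 0.017. Without cells with a UMI of other cell types, Ssr4 was at 0.40, Pdia4 at 0.14, Loxl3 at -0.041 and Sec13 at -0.22. Without shared barcodes, Sec61b was at 0.24, Ssr4 at 0.39, Hsp90b1 at 0.069, Pdia4 at 0.082 and Tmed10 at 0.034. Without immune cells, Sec61b was at 0.45, Ssr4 at 0.58, Hsp90b1 at 0.18, Pdia4 at 0.27, Tmed10 at 0.13 and Xbp1 at 0.096. With cells also weighted equally these were 0.37, 0.52, 0.15, 0.31, 0.10 and 0.094. Within the 3 ranges and without immune cells, Sec61b was at 0.37, Ssr4 at 0.50, Hsp90b1 at 0.17, Pdia4 at 0.23 and Tmed10 at 0.074. The cause was not tested beyond these alternatives.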
